A study of Mus musculus with 2 samples.

Results

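The genes described here are 9 axon guidance genes measured by an imaging panel in mouse intestine: the secreted ligands Slit2 and Slit3, the Slit receptor Robo2, the neuropilins Nrp1 and Nrp2, and the semaphorins Sema3a, Sema5a, Sema6a and Sema6d. They are 9 of the 140 genes on the panel and were chosen by name, as columns present in the table of every region. Sections of duodenum and colon came from 1 female and 1 male C57Bl6 mouse aged 6 to 10 weeks, with no treatment or genetic change named in the labels. Fixed frozen sections were stained for cell boundaries and imaged with MERSCOPE, a platform that reads RNA molecules as barcodes in place, and each value is a count of 1 transcript in 1 segmented cell. There are 2 regions per animal, and the labels do not say which region is duodenum and which is colon, so regions carry their numbers only.

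Slits are secreted proteins that bind Robo receptors and repel growing axons and migrating cells. Class 3 semaphorins such as Sema3a are secreted and signal through neuropilins joined to plexins, whereas Sema5a, Sema6a and Sema6d are membrane-spanning and bind plexins. Neuropilins also bind forms of vascular endothelial growth factor, and Slits, semaphorins and neuropilins are used outside the nervous system in vessels, epithelia and connective tissue. The panel carried 0 of 6 endothelial markers and none of the markers listed for lymphatic vessels, pericytes, immune cells or interstitial cells of Cajal, so those cells were not separated here.

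The stretches of promoter shown first belong to the 4 genes with the clearest differences between cell groups below: Slit3, Nrp2 and Nrp1, which had their highest levels in cells rich in Fn1, Vim and Pdgfra, and Sema5a, which had its highest level in cells with Cftr or Kcnn4. Of the 9 members, 8 had a window in the RefSeq promoter table (GRCm38.p6), all but Sema6a. Each run is the 250 bases before the gene's start on the plus strand, and capitals mark GGGCGG, a GC box, or its reverse complement CCGCCC. The windows are chr11:35121206-35121455 for Slit3, chr1:62703067-62703316 for Nrp2, chr8:128358823-128359072 for Nrp1 and chr15:32244563-32244812 for Sema5a.
Slit3: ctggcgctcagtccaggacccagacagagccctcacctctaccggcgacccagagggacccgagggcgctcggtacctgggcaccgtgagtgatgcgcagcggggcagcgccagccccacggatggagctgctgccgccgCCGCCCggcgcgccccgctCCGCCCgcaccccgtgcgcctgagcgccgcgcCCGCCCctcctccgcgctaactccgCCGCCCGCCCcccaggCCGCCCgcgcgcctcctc
Nrp2: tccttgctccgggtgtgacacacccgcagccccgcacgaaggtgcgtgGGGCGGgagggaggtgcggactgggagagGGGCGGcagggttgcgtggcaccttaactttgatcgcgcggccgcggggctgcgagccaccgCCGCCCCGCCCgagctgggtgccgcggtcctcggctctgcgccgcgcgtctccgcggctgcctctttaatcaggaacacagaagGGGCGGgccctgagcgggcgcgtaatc
Nrp1: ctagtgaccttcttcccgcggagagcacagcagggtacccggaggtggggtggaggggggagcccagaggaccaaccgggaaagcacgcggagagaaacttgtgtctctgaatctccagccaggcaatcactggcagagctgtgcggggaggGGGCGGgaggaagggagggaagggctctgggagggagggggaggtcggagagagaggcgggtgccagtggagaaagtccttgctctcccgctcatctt
Sema5a: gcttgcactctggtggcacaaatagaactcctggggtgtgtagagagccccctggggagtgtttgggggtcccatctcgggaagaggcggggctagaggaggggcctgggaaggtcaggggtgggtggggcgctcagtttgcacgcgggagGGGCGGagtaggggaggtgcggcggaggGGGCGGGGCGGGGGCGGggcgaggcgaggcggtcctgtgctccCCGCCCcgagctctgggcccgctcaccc
With overlapping matches counted separately, the windows of Slit3, Nrp2, Nrp1 and Sema5a held 6, 5, 1 and 5 matches. Across the 32851 windows of the table, 32.7% held at least 1. CG pairs numbered 35, 32, 11 and 17 in the same order, against a median of 6 over the table. Among the other members Slit2 had 3 matches and 1 of the Sema6d windows had 1, while the windows of Robo2 and Sema3a had 0. The letters TATAAA, searched on both strands and held by 12.4% of the windows, were present once for Slit2 and in no other member's window. A match describes these letters only.

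Depth set what could be seen. Female region 1 held 45942 panel counts in 13707 cells, female region 0 held 4288 in 6343, male region 1 held 582 in 4068 and male region 0 held 3048 in 7775. The members made up 3.06%, 1.59%, 1.89% and 2.26% of these counts in the same order. Values in brackets are the bounds of exact 95% intervals, which take in counting error alone, and levels are given per 10000 counts. Probe sets differ between genes, so levels are compared for 1 gene across cells or regions and not between genes.

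Counts were set beside 40 blank barcodes, which match no gene and show the rate of false reads. Above the highest blank lay 6 guidance genes in female region 1, 5 in male region 0, 1 in male region 1 and 0 in female region 0. In female region 1, 6 of 9 members lay above the highest blank, which had 46 counts, and 66.4% of all panel genes did, a like share. Nrp2 had 325 counts, Slit3 309, Nrp1 282, Sema6a 234, Sema5a 119 and Sema6d 66. Sema3a with 27 counts, Slit2 with 25 and Robo2 with 21 stood above the mean blank of 14.3 but below 7, 8 and 12 of the blanks, with never more than 1 count in a cell. Their values in cell groups below rest on 0 to 6 counts in each of the 4 groups, and no order is read from them.

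Female region 0 and male region 1 held few counts of these genes. Female region 0 had 0 of 9 members above its highest blank of 33 counts, against 16.4% of the panel. Its highest member was Sema6a with 18 counts, followed by Nrp1 and Sema5a with 10 each and Nrp2 with 9, and Slit3 had 3. Male region 1 had 1 member above its highest blank of 2 counts, against 37.9% of the panel. That member was Sema6a with 7 counts, each in a different cell, while Nrp1 had 2, Robo2 and Sema5a 1 each, and the other 5 members were at 0. A count of 0 here has an exact upper bound of 63.4 per 10000, and 3 counts would be a level of 51.5.

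Male region 0 had 5 of 9 members above its highest blank of 9 counts, against 32.9% of the panel. Sema5a had 16 counts, Nrp2 11, and Nrp1, Sema3a and Sema6a 10 each, while Slit3 and Robo2 had 4 each and Slit2 and Sema6d 2 each. The Sema5a value leaned on a single cell, which held 8 of the 16 counts together with 145 panel counts, 6 of Fgfr1 and 9 of the enteric neuron markers. Without that cell Sema5a had 8 counts and lay below the highest blank. The intervals of Nrp2, Nrp1, Sema3a and Sema6a reached below 9 counts, with lower bounds of 5.49 for Nrp2 and 4.80 for the others. In cells with another panel count, 2 members were above the highest blank. Of the 4 regions, male region 0 was the 1 where Sema3a exceeded the highest blank.

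**Figure D1:**
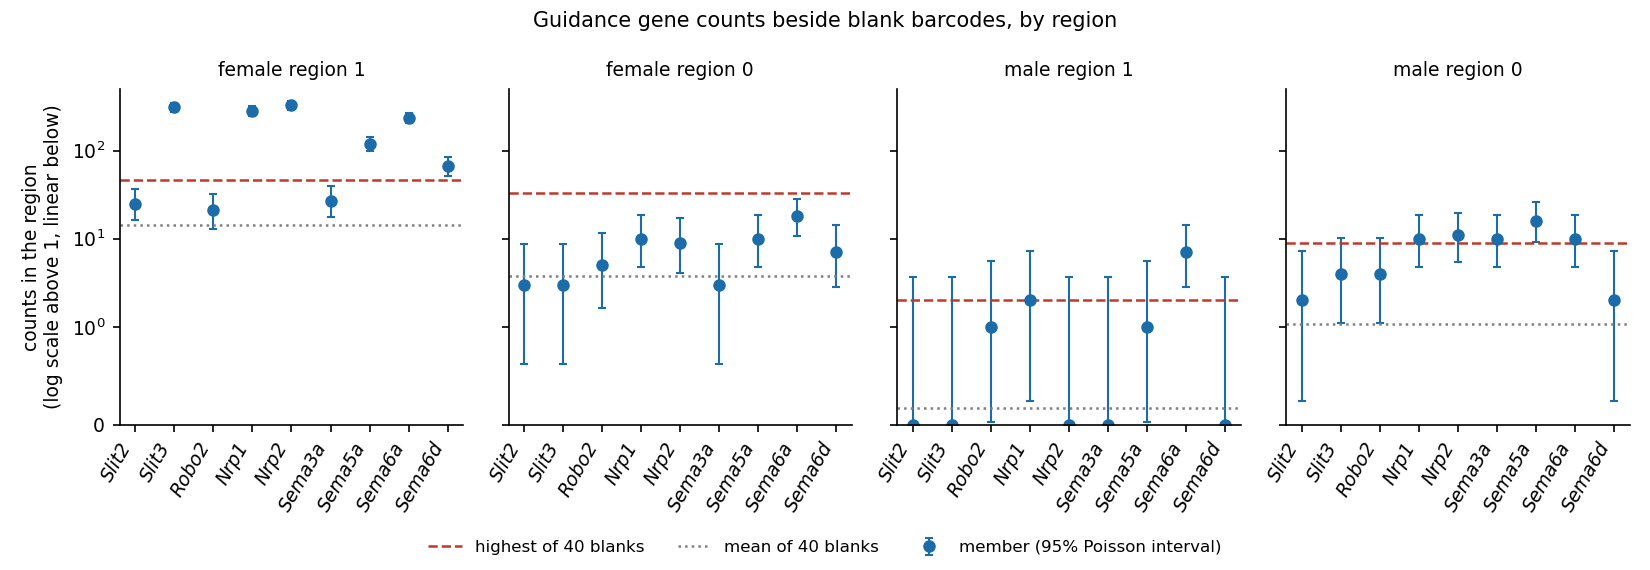
Counts of the 9 guidance genes in each region (points, with exact 95% Poisson intervals), beside the highest (dashed) and the mean (dotted) of 40 blank barcodes; the vertical axis is logarithmic above 1 and linear below. In female region 1, 6 genes lie above the dashed line; in female region 0, 0 do.

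Cells were grouped by counts of genes outside the guidance set. The 4 rules were Fn1, Vim and Pdgfra with at least 3 counts together (connective tissue genes), Des with at least 2 (a muscle filament), Cftr and Kcnn4 with at least 1 (ion channels of crypt-type epithelium) and Aqp8 and Slc26a3 with at least 3 (transport genes of surface colonocytes). In female region 1 they took 584, 264, 473 and 650 cells, with 129 cells in more than 1 group, and 11866 cells met no rule. The 8 genes of the rules were left out of the scale, which leaves 3655, 1513, 2346, 9562 and 15464 counts. The other 3 regions held at most 26 cells of any group, too few to compare. All group comparisons therefore describe 1 section of 1 animal and carry no test.

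Markers outside the rules moved with the groups. The muscle markers Dmpk and Cacna1c together stood at 3761 per 10000 in Des cells, 1116 in Fn1+Vim+Pdgfra cells, 277 in Cftr+Kcnn4 cells and 69.0 in Aqp8+Slc26a3 cells, and the epithelial genes Ezr and Shroom3 at 231, 799, 1373 and 3742. Cells of no group stood at 641 for the muscle markers, between Fn1+Vim+Pdgfra and Cftr+Kcnn4 cells. For the epithelial genes they stood at 1318, close to Cftr+Kcnn4 cells. The 7 enteric neuron markers on the panel stood at 271, 60.2, 51.2 and 60.7 in the same order, and the 5 enteric glia markers at 119, 90.3, 68.2 and 59.6. The groups are therefore mixtures, and the part of mixing by segmentation in the values below was not tested.

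Slit3, Nrp2 and Nrp1 each had their highest level in Fn1+Vim+Pdgfra cells and their lowest in Aqp8+Slc26a3 cells. Sema5a was highest in Cftr+Kcnn4 cells and Sema6a in Aqp8+Slc26a3 cells. Sema6d showed no difference beyond counting error under these rules. A gene was counted as higher or lower where its ratio, group over all other cells of the region, was at least 2 or at most 0.5 on at least 20 counts, and all 9 members had that many.

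In Fn1+Vim+Pdgfra cells 4 members were higher (Slit3, Nrp2, Slit2 and Sema3a) against 19.5% of panel genes, and 0 were lower against 11.5%. Slit2 and Sema3a rest on 6 counts each, as many as the highest blank in those cells, with intervals that include 1. In Des cells 1 was higher (Slit2, on 3 counts) against 28.3%, and 0 were lower against 23.9%. In Cftr+Kcnn4 cells 1 was higher (Sema5a) against 6.19%, and 1 was lower (Sema3a, on 1 count) against 20.4%. In Aqp8+Slc26a3 cells 0 were higher against 8.85%, and 7 were lower against 47.8%. The median ratio of the members in those groups was 1.95, 1.33, 0.936 and 0.141, and that of the 113 panel genes measured this way was 1.199, 1.19, 0.884 and 0.537. A low ratio in Aqp8+Slc26a3 cells was thus common on the panel, and the members' median lay below the panel's there.

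The count in Fn1+Vim+Pdgfra cells depended on the cells it was set against. Against cells that met no rule, a comparison chosen after seeing the data, 1 member was higher, Slit3. With the rules' own genes kept in the scale it was again 1, Slit3. Against the other 3 groups it was 4, and among cells with at least 10 panel counts also 4. In both cases these were Slit3, Nrp1, Nrp2 and Sema5a.

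**Figure D2:**
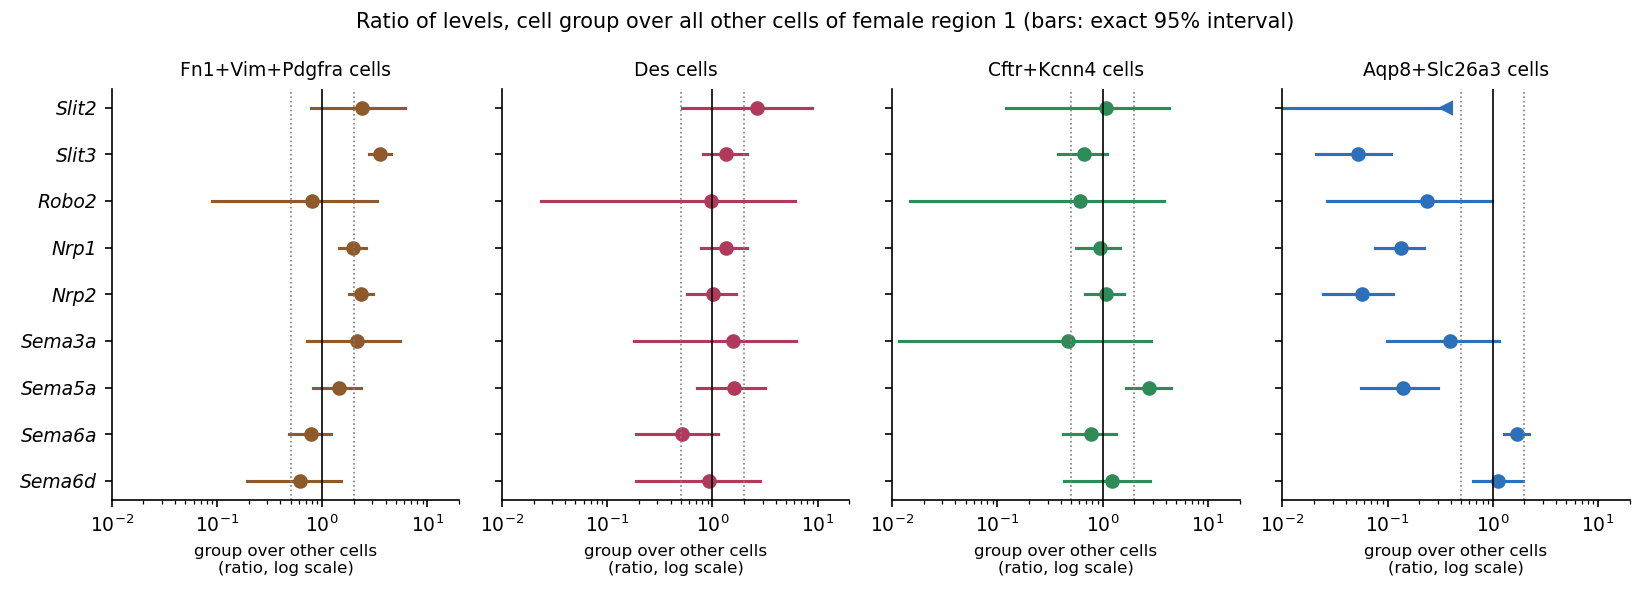
Ratio of each guidance gene's level in a cell group over all other cells of female region 1 (points, logarithmic axis) with exact 95% intervals; dotted lines mark 0.5 and 2, and the arrowhead marks the upper bound for Slit2, which had 0 counts in Aqp8+Slc26a3 cells. Slit3, Nrp2 and Nrp1 lie to the right in Fn1+Vim+Pdgfra cells and far to the left in Aqp8+Slc26a3 cells.

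Slit3, a secreted ligand of Robo receptors, had the widest spread between groups among the 6 members above the highest blank of the region. Its level was 271 per 10000 (220 to 330) in Fn1+Vim+Pdgfra cells, 132 (80.7 to 204) in Des cells, 68.2 (38.98 to 111) in Cftr+Kcnn4 cells, 7.32 (2.94 to 15.1) in Aqp8+Slc26a3 cells and 114 (98.2 to 133) in cells of no group. The interval of the first group did not overlap that of Des cells, Des and Cftr+Kcnn4 cells overlapped, and Aqp8+Slc26a3 cells lay apart at the bottom. The ratio of Fn1+Vim+Pdgfra cells over all other cells was 3.54 (2.76 to 4.52), on 99 counts against 210. Set against cells of no group only, it was 2.37 (1.83 to 3.04).

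A single Fn1+Vim+Pdgfra cell held 9 Slit3 counts out of its 19 panel counts, the highest value of any member in a cell of this region. Without that cell the ratio was 3.23 (2.50 to 4.16). Between the extreme groups, with cells of both left out, Fn1+Vim+Pdgfra cells exceeded Aqp8+Slc26a3 cells 39.1-fold for Slit3 (18.3 to 99.7). The 7 Slit3 counts of Aqp8+Slc26a3 cells stood beside a mean blank of 5.83 per 10000 and a highest blank of 31 counts in the same cells, so the low side of this ratio is no higher than background.

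The other Slit ligand and the Slit receptor were too sparse to follow Slit3. Slit2 had 6, 3, 2 and 0 counts in Fn1+Vim+Pdgfra, Des, Cftr+Kcnn4 and Aqp8+Slc26a3 cells, and 16 in cells of no group. The 0 in Aqp8+Slc26a3 cells put Slit2 at least 3.70-fold lower there than in all other cells, taking 3 counts over the group as the floor. The upper bound of the exact interval of that ratio was 0.359, a weaker limit than the floor gives. Per cell the upper bound was 3.19, so that interval includes 1. Robo2, a receptor of Slits, had 2, 1, 1 and 2 counts in the 4 groups and 15 in cells of no group. Neither gene was above the highest blank in any group.

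Nrp2 and Nrp1 are co-receptors for class 3 semaphorins, and both shared the order of Slit3 at its 2 ends. Nrp2 stood at 211 per 10000 (166 to 263) in Fn1+Vim+Pdgfra cells, 106 (60.4 to 172) in Des cells, 111 (72.4 to 162) in Cftr+Kcnn4 cells, 8.37 (3.61 to 16.5) in Aqp8+Slc26a3 cells and 136 (118 to 155) in cells of no group. On this scale the interval of the first group lay apart from that of the next, Cftr+Kcnn4 and Des cells did not differ beyond their intervals, and Aqp8+Slc26a3 cells were apart at the bottom. The ratio of Fn1+Vim+Pdgfra cells over other cells was 2.33 (1.78 to 3.02), and 1.55 (1.18 to 2.02) over cells of no group.

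Nrp1 had a narrower spread above the same low end. Its level was 159 per 10000 (120 to 205) in Fn1+Vim+Pdgfra cells, 119 (70.5 to 188) in Des cells, 85.3 (52.1 to 132) in Cftr+Kcnn4 cells, 16.7 (9.56 to 27.2) in Aqp8+Slc26a3 cells and 122 (105 to 141) in cells of no group. The upper 3 groups overlapped each neighbour, and Aqp8+Slc26a3 cells were apart. The ratio of Fn1+Vim+Pdgfra cells over other cells was 1.95 (1.43 to 2.61), short of the fold of 2, and over cells of no group it was 1.30 (0.9502 to 1.75), with an interval that includes 1. With cells of both groups left out, Fn1+Vim+Pdgfra cells exceeded Aqp8+Slc26a3 cells 26.6-fold for Nrp2 (12.8 to 63.8) and 11.05-fold for Nrp1 (6.07 to 21.5). The low side again lay below the highest blank of Aqp8+Slc26a3 cells, with 8 counts of Nrp2 and 16 of Nrp1 against 31. The mean blank there was 5.83 per 10000, inside the interval of Nrp2 (3.61 to 16.5) and below that of Nrp1 (9.56 to 27.2). The size of these folds is thus uncertain beyond counting error.

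The low values of Aqp8+Slc26a3 cells depended on the scale. These were the deepest cells, with a median of 19 panel counts, against 10 in Fn1+Vim+Pdgfra cells, 8 in Des cells, 6 in Cftr+Kcnn4 cells and 0 in cells of no group. Counted per cell, the ratio of Aqp8+Slc26a3 cells over other cells was 0.466 (0.186 to 0.971) for Slit3 and 0.507 (0.217 to 1.01) for Nrp2, against 0.0523 and 0.0569 per 10000 counts. For Nrp1 it turned to 1.21 (0.681 to 2.00) and for Sema5a to 1.26 (0.493 to 2.67), against 0.136 and 0.141 per 10000 counts. Among cells with at least 10 panel counts, where depths are closer, the ratio per 10000 counts was 0.0567 (0.0222 to 0.121) for Slit3, 0.0493 (0.0194 to 0.105) for Nrp2 and 0.180 (0.0978 to 0.313) for Nrp1.

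At equal depth the intervals of all groups but Aqp8+Slc26a3 overlapped that of Fn1+Vim+Pdgfra cells for these genes. Overlap of separate intervals does not test the difference between shares, and no test was made. Each cell was thinned to 10 counts, which left out 480 Fn1+Vim+Pdgfra, 218 Des, 402 Cftr+Kcnn4, 266 Aqp8+Slc26a3 and 11672 ungrouped cells. Shares before thinning are over all cells of a group, those left out included. Nrp2 was then found in 10.6% (5.40 to 18.1), 8.70% (2.42 to 20.8), 9.86% (4.06 to 19.3), 0.260% (0.00659 to 1.44) and 9.79% (6.00 to 14.9) of the cells left, in that order, against 11.5%, 6.06%, 5.29%, 1.08% and 1.64% before thinning. Slit3 was in 12.5% of the thinned Fn1+Vim+Pdgfra cells (6.83 to 20.4), against 4.12% of ungrouped cells (1.80 to 7.96), with 11.8% and 1.36% before thinning. The Slit3 and Nrp2 intervals of Aqp8+Slc26a3 cells lay below those of Fn1+Vim+Pdgfra cells after thinning, as did that of Nrp1, found in 2.08% (0.904 to 4.06) and 10.6% (5.40 to 18.1) of those cells (2.31% and 9.59% before thinning), while for all 3 genes the other groups overlapped Fn1+Vim+Pdgfra cells.

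Sema6a, a membrane-bound semaphorin that binds A-type plexins, had a different order from the neuropilins. Its level was 105 per 10000 (85.1 to 127) in Aqp8+Slc26a3 cells, 60.2 (37.7 to 91.1) in Fn1+Vim+Pdgfra cells, 59.7 (32.6 to 100.1) in Cftr+Kcnn4 cells, 39.7 (14.6 to 86.3) in Des cells and 67.9 (55.5 to 82.2) in cells of no group. Each neighbour in this order overlapped the next. The ratio of Aqp8+Slc26a3 cells over other cells was 1.68 (1.29 to 2.20), under the fold of 2, and over Cftr+Kcnn4 cells, with cells of both left out, it was 2.45 (1.24 to 5.53). Without Dmpk, Ezr and Shroom3 in the scale, chosen after seeing the data, the ratio over other cells passed the fold at 2.19 (1.67 to 2.86).

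Sema6a was the 1 member above the highest blank within Aqp8+Slc26a3 cells, where 24.2% of panel genes were. Cells with more Slc26a3 than Aqp8 and cells with more Aqp8 than Slc26a3 did not differ beyond counting error in Sema6a, at 111 against 103 per 10000, a ratio of 1.08 (0.686 to 1.67). After the same thinning, 10.9% of 384 Aqp8+Slc26a3 cells kept a Sema6a count (7.997 to 14.5), against 2.82% of 71 Cftr+Kcnn4 cells (0.343 to 9.81) and 9.28% of 194 cells of no group (5.59 to 14.3). Before thinning the shares were 13.7%, 2.75% and 0.851%. The gap to cells of no group was narrower after thinning, and the thinned intervals of all 3 overlap. The shares before thinning are over all cells of a group, and thinning left out 11672 of 11866 ungrouped cells. Depth and the choice of cells kept therefore cannot be told apart in this change.

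Sema5a, a transmembrane semaphorin with thrombospondin repeats, was highest in Cftr+Kcnn4 cells. It stood at 93.8 per 10000 (58.8 to 142) there, 59.5 (27.2 to 113) in Des cells, 52.0 (31.3 to 81.2) in Fn1+Vim+Pdgfra cells, 7.32 (2.94 to 15.1) in Aqp8+Slc26a3 cells and 44.6 (34.7 to 56.5) in cells of no group. The upper 3 overlapped, and Aqp8+Slc26a3 cells were apart. The ratio of Cftr+Kcnn4 cells over other cells was 2.78 (1.67 to 4.46), on 22 counts against 97. With at least 2 Cftr and Kcnn4 counts required, it was 1.63 (0.331 to 4.88). At 10 counts per cell Sema5a was in 7.04% of Cftr+Kcnn4 cells (2.33 to 15.7), 10.9% of Des cells (3.62 to 23.6) and 6.70% of ungrouped cells (3.62 to 11.2). Before thinning those shares were 4.44%, 3.03% and 0.573% of all cells of each group. The thinned shares rest on 5, 5 and 13 cells, and their intervals overlap, so they cannot decide on a lead. Per 10000 counts among cells with at least 10 panel counts, Sema5a was still the 1 member at least 2-fold higher in Cftr+Kcnn4 cells. The other side there took in Aqp8+Slc26a3 cells.

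Per 10000 counts, Aqp8+Slc26a3 and Cftr+Kcnn4 cells differed in Sema5a and Sema6a beyond counting error. With shared cells left out, Aqp8+Slc26a3 cells had 7.45 per 10000 of Sema5a and Cftr+Kcnn4 cells 101, a ratio of 0.0739 (0.0267 to 0.179). The Sema5a counts of Aqp8+Slc26a3 cells, 7 in all, lay below the highest blank of 31 there, so the low side is no higher than background. For Sema6a the same cells had 101 and 41.2, a ratio of 2.45. After thinning the whole groups, the Sema6a intervals overlapped, at 7.997 to 14.5% and 0.343 to 9.81% of cells. Those of Sema5a, at 0.00659 to 1.44% and 2.33 to 15.7%, did not.

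Sema6d, a transmembrane semaphorin, and Sema3a, a secreted ligand of neuropilins, gave no difference beyond counting error in the 4 comparisons per 10000 counts. Sema6d ranged over the 4 groups between 13.7 per 10000 in Fn1+Vim+Pdgfra cells and 25.6 in Cftr+Kcnn4 cells, and its 4 ratios over other cells were between 0.616 and 1.23, each with an interval that includes 1. With at least 2 Cftr and Kcnn4 counts required, the Sema6d ratio in that group was 4.07 (1.07 to 10.9), and Sema6d took the place of Sema5a as the 1 member counted as higher. That ratio rests on at most the 6 Sema6d counts of all Cftr+Kcnn4 cells. Sema3a had 6, 2, 1 and 4 counts in Fn1+Vim+Pdgfra, Des, Cftr+Kcnn4 and Aqp8+Slc26a3 cells. Its ratio of 2.15 in the first group had an interval of 0.709 to 5.50.

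**Figure D3:**
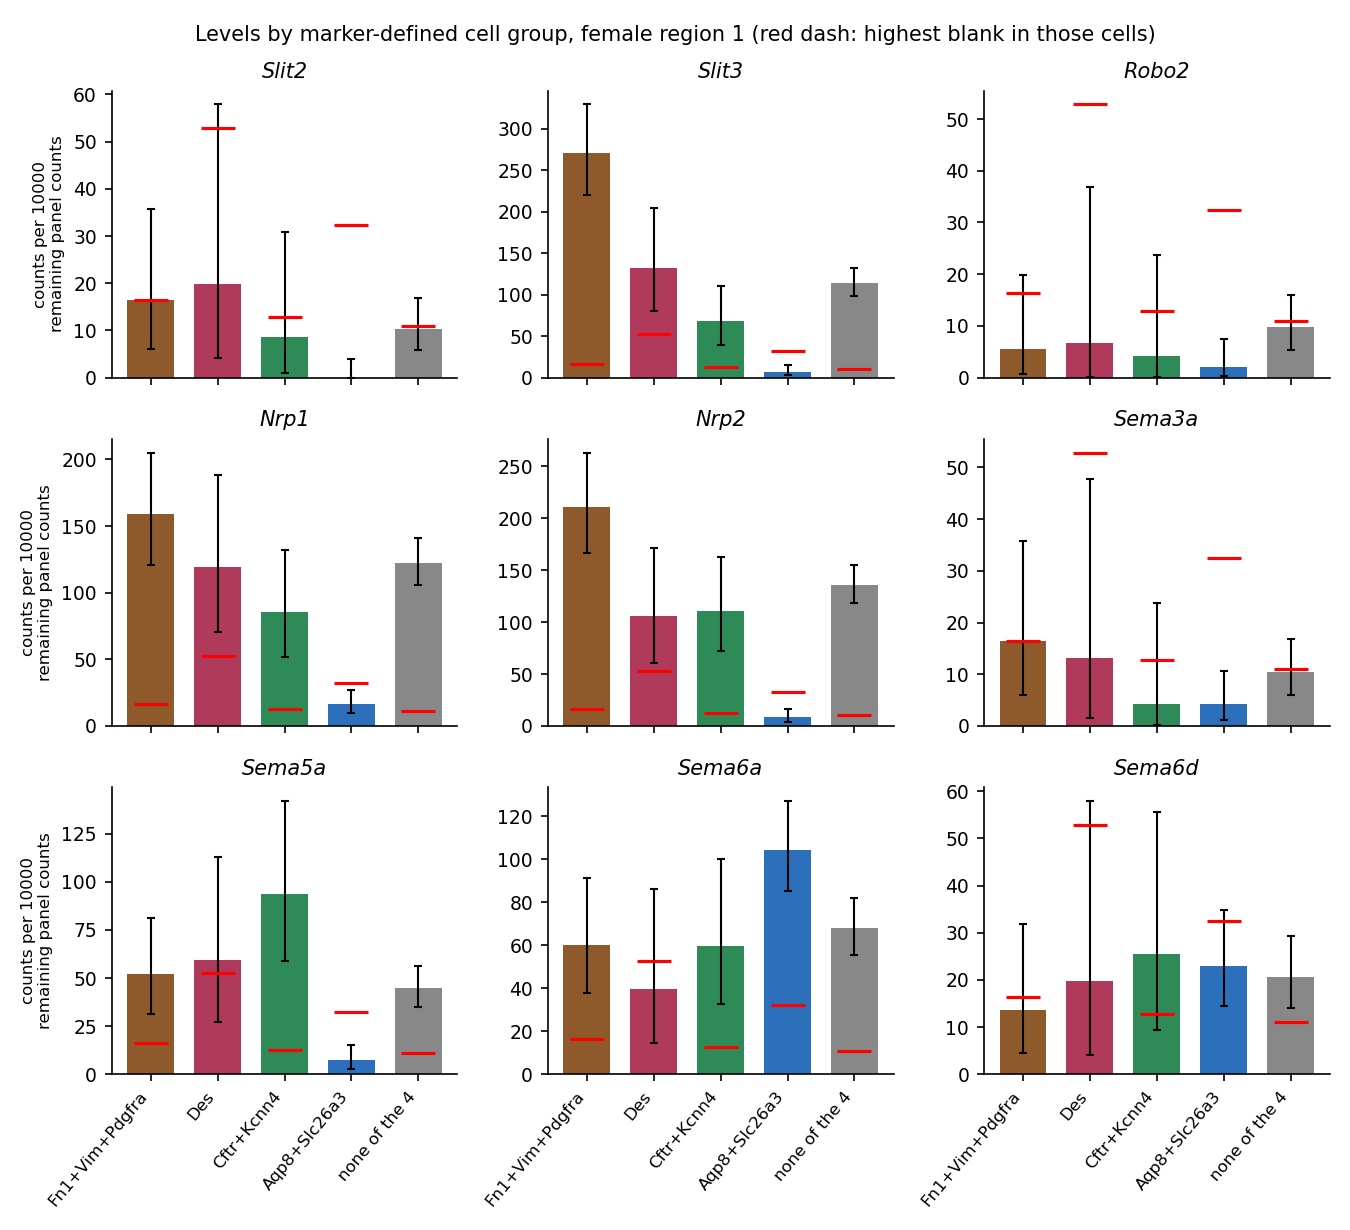
Level of each guidance gene per 10000 remaining panel counts in the 4 marker-defined groups and in cells of no group, female region 1, with exact 95% Poisson intervals; red dashes mark the highest blank in the same cells. Slit3, Nrp1 and Nrp2 stand above the dash in every group but Aqp8+Slc26a3, where Sema6a is the gene above it.

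Of the members, 5 lay above the highest blank within Fn1+Vim+Pdgfra cells, 4 within Des cells and 6 within Cftr+Kcnn4 cells, against 61.4%, 29.5% and 60.6% of panel genes. The blank line was not even across groups. In Aqp8+Slc26a3 cells a single blank barcode had 31 of its 40 counts of the region.

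Within Fn1+Vim+Pdgfra cells Slit3 divided with Pdgfra, a receptor that marks several fibroblast types. The 150 cells with Pdgfra had a Slit3 level of 111 per 10000, against 346 in the 434 cells without it, a ratio of 0.323 (0.165 to 0.581). Nrp1 differed less, 94.3 against 189 per 10000, a ratio of 0.4996 (0.234 to 0.977). Nrp2 stood at 223 with Pdgfra and 205 without, a ratio of 1.09 (0.651 to 1.78). Both sides came from cells chosen by the sum of 3 genes, so cells without Pdgfra had all of their 3 or more counts in Fn1 and Vim.

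Whether the same cells carried several guidance genes was asked within Fn1+Vim+Pdgfra cells, a split chosen after seeing the data. Cells with a Slit3 count had an Nrp1 level 1.52 times (0.685 to 3.04) and an Nrp2 level 1.48 times (0.748 to 2.71) that of cells without one. Cells with an Nrp1 count had an Nrp2 level 0.581 times (0.206 to 1.33) that of cells without. All 9 such ratios, which share these cells, had intervals that include 1, and 5 to 9 cells held both genes of a pair.

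The nervous system cells of female region 1 were few. In 29 cells with at least 2 counts of neuron markers, Robo2 and Slit3 had 2 counts each, Nrp2 had 4, Nrp1 3, Sema5a 2, Sema6a 1 and the other 3 members 0. In 220 cells with at least 1 count of a glia marker, Nrp2 stood at 84.4 per 10000 (50.04 to 133), Sema6a at 75.0 (42.9 to 122), Nrp1 at 70.4 (39.4 to 116) and Slit3 at 61.0 (32.5 to 104), while Robo2 had 0 counts. The other regions, where neuron marker cells were relatively more frequent, had 7 member counts in 78 such cells of female region 0, 1 in 11 of male region 1 and 15 in 33 of male region 0. Of the 15 in male region 0, 10 were Sema5a, or 161 per 10000 (77.3 to 297), with 8 of them in the single cell described above, and 4 were Nrp2.

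The 1 comparison that both animals could enter was Cftr+Kcnn4 cells against all other cells, summed per animal with the animal as a block. By edgeR's quasi-likelihood test with Benjamini-Hochberg adjustment, 0 of 98 genes passed 0.05 (0%), 8 had an unadjusted p under 0.05, and DESeq2 called 0 with 7 unadjusted. Of the members, 6 were tested. Sema5a had a log2 difference of 1.34 (SE 0.75, adjusted p = 0.574 by edgeR), with 90.4 per 10000 in the female's Cftr+Kcnn4 cells and 32.5 in the female's other cells. The male had 11 Cftr+Kcnn4 cells with 32 remaining counts and 0 of any member, beside a Sema5a level of 48.5 in the male's other cells. The log2 differences of the other 5 tested members lay between -0.46 for Slit3 and 0.27 for Sema6d, with adjusted p between 0.928 and 0.978. The fit had 1 residual degree of freedom.

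Within the female, Slit3 and both neuropilins took a larger share of the counts in region 1 than in region 0. Region 1 held 584 Fn1+Vim+Pdgfra cells and region 0 held 0, and the part of this in the ratios was not tested. Each region is 1 section, so no test was made. Of the 9 members 3 were higher in region 1 against 33.1% of panel genes, and 1 was lower, Robo2, against 26.8%. Nrp2 had 70.7 per 10000 in region 1 and 20.99 in region 0, a ratio of 3.37 (1.75 to 7.44), and Nrp1 had 61.4 and 23.3, a ratio of 2.63 (1.41 to 5.55). Slit3 had 67.3 per 10000 in region 1 and 6.996 in region 0, on 309 counts against 3, and was the member that differed most. Sema6a (1.21, 0.751 to 2.08), Sema5a (1.11, 0.583 to 2.38) and Sema6d (0.880, 0.404 to 2.27) had ratios near 1.

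Every member of female region 0 lay below its highest blank, so these ratios are imprecise beyond counting error. Robo2, on 21 counts against 5, had a ratio of 0.392 (0.144 to 1.33). Per cell, where region 1 is deeper for the whole panel, 8 members were higher and 0 lower. The median ratio of the members per 10000 counts was 1.11, and that of 127 panel genes 0.980.

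In the male, no member had 20 counts over both regions, so 0 of 9 were compared, while 11.5% of the 26 panel genes with enough counts were higher in region 1 and 26.9% lower. Sema6a had 7 counts in region 1, or 120 per 10000 (48.4 to 248), and 10 in region 0, or 32.8 (15.7 to 60.3). Its ratio was 3.67 (1.18 to 10.7) on 17 counts in all.

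Between the animals, with regions summed, 3 members were higher in the female (Slit3, Sema6d and Nrp2) against 29.4% of panel genes, and 2 were lower (Sema3a and Robo2) against 35.3%. Slit3 had 62.1 per 10000 in the female and 11.02 in the male, a ratio of 5.64 (2.18 to 20.8). The ratios of Sema6d (2.64, 0.705 to 22.2, on 73 counts against 2) and Robo2 (0.376, 0.142 to 1.25, on 26 against 5) had intervals that include 1. Nrp2 had 66.5 and 30.3, a ratio of 2.19 (1.21 to 4.44). Both ratios came with female region 1: without it they were 0.635 (0.0930 to 3.75) for Slit3 and 0.693 (0.254 to 1.84) for Nrp2. Sema3a had 5.97 per 10000 in the female and 27.5 in the male, a ratio of 0.217 (0.103 to 0.497), on 30 counts against 10. Per cell that ratio was 1.77 (0.843 to 4.06).

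Among the 6 members above the highest blank of female region 1, Sema6a had the ratio nearest to 1 between the animals, with 50.2 per 10000 in the female and 46.8 in the male (48.5 ± 2.36, SD, n = 2). That ratio was 1.07 (0.656 to 1.87), on 252 counts against 17. Sema5a had 25.7 and 46.8 (36.3 ± 15.0) and Nrp1 58.1 and 33.1 (45.6 ± 17.7). Robo2, which is not among those 6, had 5.18 and 13.8 (9.48 ± 6.08). Sex, animal and section cannot be told apart, and the labels do not match regions between the animals.

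**Figure D4:**
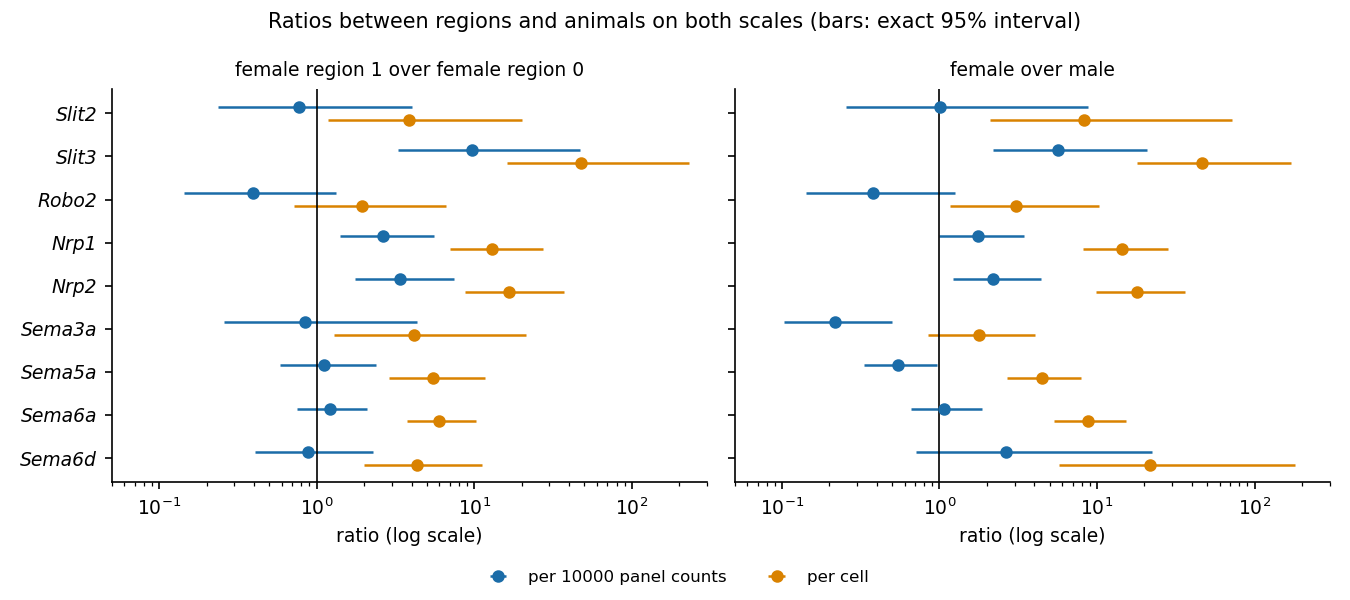
Ratios of each guidance gene for female region 1 over female region 0 and for the female over the male, on the scales per 10000 panel counts and per cell; bars are exact 95% intervals and the axis is logarithmic. Slit3, Nrp1, Nrp2, Sema5a and Sema6a lie above 1 on both scales in the left panel. Robo2 and Sema3a change side with the scale in both panels, Slit2 and Sema6d in the left only and Sema5a in the right only.

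Of 97 other guidance genes listed for comparison, 2 were on the panel, the semaphorin Sema3e and the ephrin receptor Epha5. Sema3e, a secreted ligand of Plxnd1, was highest in Des cells, with 85.9 per 10000 (45.7 to 147) against 22.96 in other cells, a ratio of 3.74 (1.90 to 6.83). None of the 9 members led in Des cells on more than 3 counts. Epha5 had 13 counts in female region 1, too few to compare between groups.

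The panel genes whose levels most resembled each member's were sought over 8 points, the 4 groups and the ungrouped cells of female region 1 and the other 3 regions as wholes, among 83 genes. For Slit3 these were the collagen gene Col18a1 (r = 0.966) and Nrp2 (r = 0.966), and for Nrp2 they were Col18a1 (r = 0.966) and Slit3. Nrp1 was most like the transcription factor gene Nfia (r = 0.986) and the splicing regulator Rbfox2 (r = 0.916). Sema5a was most like Ano6 (r = 0.852) and Syt11 (r = 0.846), and Sema6a most like Ppard (r = 0.865) and Adipor2 (r = 0.860). These correlations describe 8 points that share cells, depth and section, and carry no test.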

How the data were processed

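The authors deposited 1 table per region with whole-number counts of 140 genes and 40 blank barcodes in each segmented cell. The submitters' processing notes name Seurat. How transcripts were decoded and cells outlined is not given in the sources used here. Segmentation was not corrected and doublets were not removed. No cell identifier was shared between tables (0 of 31893 cells). The members and lists were chosen with earlier results of these data known. Every member is named in each region, other genes by a fixed list or by the correlation rule.

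Counts were summed over cells and given per 10000 panel counts, in cell groups without the 8 genes of the rules. Levels carry exact Poisson intervals, and ratios and shares exact binomial ones (95%). Fold counts use a ratio of 2 on at least 20 counts. Counts summed per animal were tested in edgeR 4.0.16 (at least 50 counts, R 4.3.3). Alternatives included per-cell scaling, stricter rules, deeper cells, cells left out, TMM factors and DESeq2 1.42.0. Scripts were tested on simulated data. Software was Python 3.11.15 and scipy 1.17.1.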

Additional observations from a re-analysis of the deposited data

How the results depend on the processing

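Of 446 values recomputed under alternatives, 355 were labelled the same, 76 moved and 15 reversed, and causes were not tested. A ratio was called reversed only if it was past the fold of 2 in the main setting and crossed 1. For edgeR log2 values any change of sign was called reversed. Other ratios inside the main interval were labelled the same, even where they crossed 1 or the fold of 2. Examples are Robo2 per cell in Cftr+Kcnn4 cells, from 0.613 to 1.40, and Sema3a with stricter rules in Aqp8+Slc26a3 cells, from 0.392 to 0.512. Counts above the blank line were 1 in female region 0 at 3 times the mean blank; in male region 1 they were 2 with the second highest blank, 4 at 3 times the mean and 0 in cells with another panel count, and in male region 0 2 in such cells. In Fn1+Vim+Pdgfra cells the number higher (4) was 1 with all panel counts or against cells of no group, 8 per cell and 2 with stricter rules, and the number lower (0) was 1 with all panel counts and in cells with at least 10 panel counts. The number higher stayed at 4 against the other 3 groups and with at least 10 panel counts. Nrp1 and Sema5a then took the place of Slit2 and Sema3a. In Des cells the number higher (1) was 0 with all panel counts, against cells of no group or with the mean blank subtracted, 8 per cell, 2 against the other 3 groups, and 3 with stricter rules or at least 10 panel counts; the number lower (0) was 1 with all panel counts, in cells of 1 group only, against the other 3 groups or with the blank subtracted, and 2 with stricter rules or without the 20 deepest cells. In Cftr+Kcnn4 cells the number higher (1) was 5 per cell, and with stricter rules it was 1 again but Sema6d in place of Sema5a; the number lower (1) was 4 with stricter rules and 0 per cell, against the other 3 groups or cells of no group, at 10 counts, without the 20 deepest cells and with the blank subtracted. In Aqp8+Slc26a3 cells the number higher (0) was 4 per cell, and 1 against the other 3 groups or without Dmpk, Ezr and Shroom3; the number lower (7) was 2 per cell, and 4 against the other 3 groups, at 10 counts and with the blank subtracted. Comparisons with cells of no group, with blanks subtracted and without those 3 genes were chosen after seeing the data.

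For female region 1 over region 0, 8 members were higher per cell, and 0 were lower (1) per cell, without the 20 deepest cells and at 10 counts. For the female over the male, the number higher (3) was 8 per cell, 0 without female region 1 and 1 without the deepest cells, and the number lower (2) was 0 per cell and 1 without female region 1.

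The ratios called reversed were past the fold of 2 in the main setting. Per cell they were, in Aqp8+Slc26a3 cells, Robo2 at 2.11, Nrp1 at 1.21, Sema3a at 3.49 and Sema5a at 1.26. Sema3a also reversed per cell at 1.08 in Cftr+Kcnn4 cells, and Robo2 at 1.94 between female regions. Between the animals Robo2 reversed per cell at 3.07 and Sema3a at 1.77. Not called reversed, Slit2 at 3.86 and Sema3a at 4.16 per cell between female regions also crossed 1. With stricter rules Slit2 (0.822) and Sema3a (0.759) reversed in Fn1+Vim+Pdgfra cells, and without female region 1 Slit3 (0.635) and Nrp2 (0.693) reversed between the animals. In the edgeR comparison, TMM factors turned Nrp1 to -0.25 and Nrp2 to -0.27 on the log2 scale, and the fit with no replicate block (the animal) turned Slit3 to 0.17; every edgeR setting and DESeq2 called 0 genes. With the male left out the edgeR comparison gives values without a test, and with the female left out it gives none, since the male's Cftr+Kcnn4 cells had 0 member counts. The male had no cells of the other 3 groups, so those fits could not be made.

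Depth limits most values: female region 1 held most of the counts, female region 0 and male region 1 left 9 and 8 of the 9 members at or below their highest blank, and 3 members never passed it in female region 1.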
